A study of Mus musculus with 6 samples.

Results

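Intermediate filament genes were followed across mouse embryonic stem cells carrying a control hairpin or either of 2 hairpins against Jmjd1c, a JmjC-domain protein of the histone demethylase family. The group holds 8 genes: Vim, Nes, Krt8, Krt18, Krt19, Lmna, Lmnb1 and Lmnb2. Members were chosen by name, as every probe set whose only gene symbol is 1 of these 8, which gave 20 of the 45037 probe sets on the array other than controls. Vim, Nes and Krt8 have 3 probe sets each, Krt18 and Krt19 have 1 each, Lmna has 5, and Lmnb1 and Lmnb2 have 2 each. Of the 20 probe sets, 17 passed the filter on dim signal, and all 8 genes were tested.

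Intermediate filaments are rope-like polymers of coiled-coil proteins that give cells and nuclei mechanical strength. Vimentin is the usual filament of mesenchymal cells, and nestin, which does not polymerise alone, joins vimentin in neural and other progenitors. Keratin filaments form only from pairs of a type I and a type II chain, with Krt8 pairing with Krt18 or Krt19 in simple epithelia and in the first epithelium of the embryo. Lamins line the inside of the nuclear envelope: B-type lamins are made in nearly all cells, while A-type lamins, spliced from Lmna, are low in embryonic stem cells and increase with differentiation.

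All groups were J1 embryonic stem cells grown on gelatin in medium holding 1000 U/ml leukemia inhibitory factor and 15% serum. Every culture was infected with lentivirus from the pLKO.1 vector, put under puromycin (1.5 ug/ml for 2 days) and then replated for 4 days, so the control cells carried the vector and the selection too. The 3 groups were a non-targeting hairpin (shNT), shJmjd1c#3 (sh3 below) and shJmjd1c#4 (sh4 below), with 2 biological replicates each, numbered 1 and 2 in the labels. Total RNA of each culture was hybridised to 1 Affymetrix mouse expression array, and values are MAS5 signals on a linear scale. No source used here says that the infected cells were cloned.

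Median signals of replicates 1 and 2 were 73.6 and 69.2 in shNT, 76.0 and 71.7 in sh3, and 81.0 and 75.5 in sh4. Replicate 1 was thus the higher in every group. The ratio of 3' to 5' signal of beta-actin, a measure of RNA integrity, was 2.70 and 2.77 in shNT, 2.26 and 2.40 in sh3, and 2.80 and 2.81 in sh4. Of the 3 Jmjd1c probe sets, 1426900_at read 6060 and 5516 in shNT and 3274 to 4984 on the 4 knockdown arrays, a log2 difference of -0.46 that did not pass the test (limma adjusted p = 0.358). The others, 1439998_at and 1448049_at, were higher by 0.73 (adjusted p = 0.439) and 0.90 (adjusted p = 0.117), so loss of the target transcript was not shown by the test and "knockdown" refers to the label. Stem cell identity was present on all arrays: Pou5f1 read 9069 to 11587 and Sox2 12259 to 16069, and the summed signal of 8 stem cell markers was 78790 and 87050 in shNT against 68980 to 73120 on the knockdown arrays. Of those 8 markers, 1 had a higher mean in the knockdown arrays. In the limma test 0 of 8 passed, beside 0.725% of all genes tested. An unadjusted p under 0.05 was found for 2 of 8, beside 1559 of the 12684 genes tested. With the replicate number as a block in the model 3 of 8 fell, where 5.6% of all genes tested passed.

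The filament genes fell into 3 kinds of profile. Vim and Nes, the filament pair of mesenchymal and progenitor cells, had knockdown means of 205% and 268% of the control mean. Each was higher on all 4 knockdown arrays than on both control arrays. Such a separation without overlap was common, being found for 20.7% of the 12684 genes tested (1421 upward and 1210 downward). The epithelial keratins Krt8, Krt18 and Krt19 were higher in replicate 2 than in replicate 1 of every group, and their groups overlapped. The lamins had knockdown means of 97.9% to 104% of the control mean. In RNA from whole cultures, more cells of a type and more RNA per cell cannot be told apart. In the comparison of the mean of both hairpins with shNT (the knockdown mean), 2 of 8 members passed the threshold of an adjusted p under 0.05 (limma, Benjamini-Hochberg over 12684 genes), beside 0.725% of all genes tested.

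**Figure D1:**
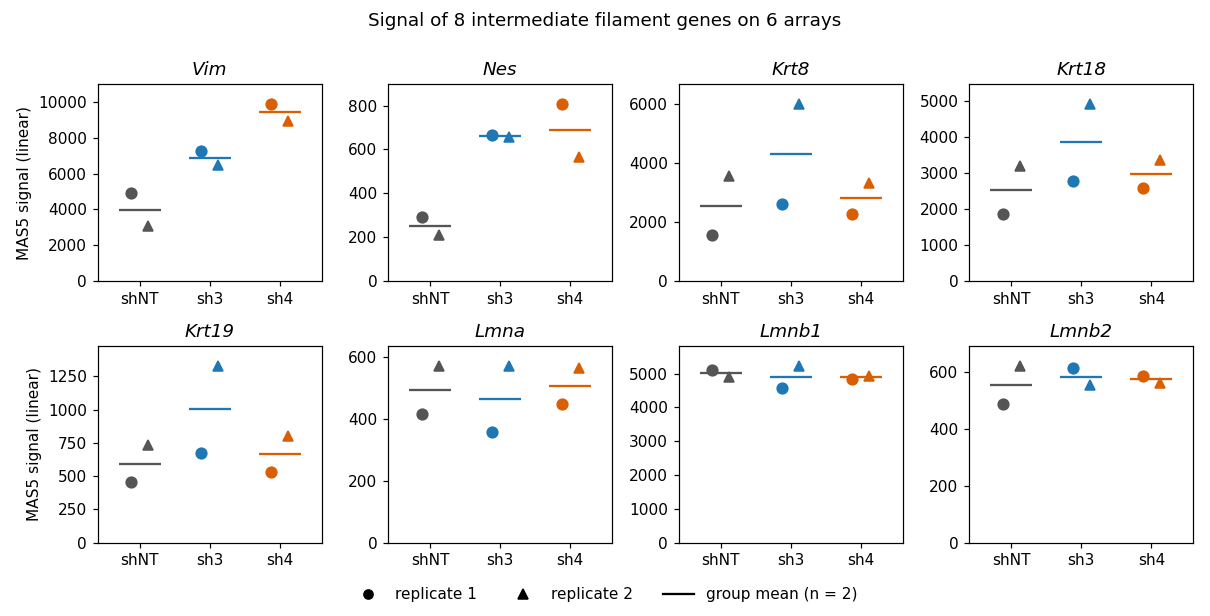
MAS5 signal (linear, each vertical axis from 0) of the 8 filament genes on 6 arrays, with circles for replicate 1, triangles for replicate 2 and a line for the mean of the 2 arrays of shNT, shJmjd1c#3 (sh3) or shJmjd1c#4 (sh4). Vim and Nes sit above both control arrays in all 4 knockdown arrays, the keratin triangles lie above the circles of the same group, and the lamin groups overlap.

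The start regions of Vim and Nes are shown because these genes moved together, and those of Krt8 and Krt18 because their chains can pair. Each is a RefSeq promoter window of mouse build GRCm38.p6, from 250 bases before to 50 bases after the annotated transcription start, read along the gene's strand. They were searched on both strands for the TATA box core TATAA, for the letters of the CCAAT box, for the GC box core GGGCGG and for the AP-1 element core TGANTCA. Capitals mark the matches. Vim lies on the plus strand at chr2:13574061-13574360, Nes on the plus strand at chr3:87970843-87971142, Krt8 on the minus strand at chr15:102004293-102004592 and Krt18 on the plus strand at chr15:102027966-102028265.
Vim: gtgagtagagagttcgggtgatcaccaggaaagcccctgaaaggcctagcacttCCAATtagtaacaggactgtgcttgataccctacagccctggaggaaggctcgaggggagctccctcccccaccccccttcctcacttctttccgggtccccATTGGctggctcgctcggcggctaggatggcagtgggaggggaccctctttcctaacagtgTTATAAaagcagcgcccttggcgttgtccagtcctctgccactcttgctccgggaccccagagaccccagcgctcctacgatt
Nes: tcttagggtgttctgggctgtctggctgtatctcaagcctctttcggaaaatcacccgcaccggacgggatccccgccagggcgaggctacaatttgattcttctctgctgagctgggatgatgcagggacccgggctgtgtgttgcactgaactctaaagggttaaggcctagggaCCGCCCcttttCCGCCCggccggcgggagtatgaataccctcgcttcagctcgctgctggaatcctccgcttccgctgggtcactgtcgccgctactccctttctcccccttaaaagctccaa
Krt8: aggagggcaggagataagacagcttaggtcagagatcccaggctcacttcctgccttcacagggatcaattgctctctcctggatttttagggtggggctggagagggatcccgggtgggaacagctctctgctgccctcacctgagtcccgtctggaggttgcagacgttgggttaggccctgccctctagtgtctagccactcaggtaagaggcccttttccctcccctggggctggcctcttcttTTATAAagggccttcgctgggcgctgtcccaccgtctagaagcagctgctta
Krt18: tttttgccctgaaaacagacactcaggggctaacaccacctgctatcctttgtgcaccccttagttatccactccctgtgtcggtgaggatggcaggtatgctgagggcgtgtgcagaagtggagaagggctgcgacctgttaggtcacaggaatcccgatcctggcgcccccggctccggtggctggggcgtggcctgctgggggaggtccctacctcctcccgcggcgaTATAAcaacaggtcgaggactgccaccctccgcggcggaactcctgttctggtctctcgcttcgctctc
In the Vim window TATAA begins 32 bases before the start, overlapping the same letters on the opposite strand, and CCAAT occurs at 196 bases before the start and, on the opposite strand, at 94 bases before it. The Nes window holds GGGCGG on the opposite strand at 73 and 62 bases before the start and no TATAA. Krt18 has TATAA 19 bases before the start, while in Krt8 it begins 1 base before the annotated start, again overlapping the opposite strand. Neither Krt8 nor Krt18 had CCAAT or GGGCGG in this window, and none of the 4 windows had TGANTCA. Over all 32851 promoter windows of the same length, TATAA was found in 24.87%, CCAAT in 37.41%, GGGCGG in 35.66% and TGANTCA in 7.808%, so each match is a description of common letters and not of a bound site. The GC content was 59.33% for Vim, 58.67% for Nes, 58% for Krt8 and 61.33% for Krt18, against a median of 52.67%. Vim and Nes shared none of these 4 motifs in this window, and a link between the motifs and the array signals was not tested.

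Vimentin (probe set 1438118_x_at) gave signals of 4897 and 3066 under shNT. The sh3 arrays read 7289 and 6488, and the sh4 arrays 9915 and 8949. Every sh4 array was above every sh3 array, and every sh3 array above both controls. Averaged over each group (SD, n = 2), this was 3981 ± 1295 for the control, 6888 ± 566 for sh3 and 9432 ± 683 for sh4. Against shNT, Vim rose in the knockdown mean by 1.05 on the log2(signal + 16) scale (SE 0.17, 95% interval 0.67 to 1.43, limma adjusted p = 0.0361). It also rose in sh4 by 1.28 (SE 0.20, limma adjusted p = 0.0425), where 0.363% of all genes tested passed. The sh4 call held in 2 of 6 fits with 1 array left out, those without shNT replicate 1 or sh3 replicate 1 (differences of 0.94 to 1.61, limma adjusted p 0.00844 to 0.251), and ended with no filter (0.0658) or no intensity trend (0.189). In sh3 the difference was 0.82 (SE 0.20, limma adjusted p = 0.210), in a comparison where 0.071% of genes and 0 of 8 members passed. There 2 of 8 members had an unadjusted p under 0.05, beside 1235 of 12684 genes. Leaving out 1 array moved the knockdown mean difference to between 0.72 (without shNT replicate 2) and 1.39 (without shNT replicate 1), and the call held in 1 of these 6 fits, the latter (limma adjusted p = 0.0135, otherwise up to 0.110). The knockdown mean call also ended with no filter (adjusted p = 0.0623) and with no intensity trend (0.189).

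Nestin read 291 and 211 in shNT, 665 and 655 in sh3, and 808 and 567 in sh4 (probe set 1449022_at). The lowest knockdown array was nearly double the highest control array, and the sh3 and sh4 arrays overlapped. Group means were 251 ± 56.6, 660 ± 6.98 and 688 ± 170 in that order (SD, n = 2). Nes rose in the knockdown mean by 1.37 (SE 0.19, 95% interval 0.94 to 1.81, limma adjusted p = 0.0246). The difference from shNT was 1.36 in sh3 (SE 0.22, limma adjusted p = 0.0754) and 1.39 in sh4 (SE 0.22, limma adjusted p = 0.0456), of which the second passed. The sh4 call held only without shNT replicate 1 among the 6 fits with 1 array left out (differences of 1.14 to 1.64, limma adjusted p 0.0481 to 0.280). It also ended with a pseudocount of 1 (0.0519), the 60th percentile filter (0.0521), no filter (0.0797), probe sets averaged per gene (0.139) and no intensity trend (0.168). With 1 array left out the knockdown mean difference was 1.16 to 1.59, and the call held in 2 of 6 fits, those without shNT replicate 1 or sh4 replicate 2 (limma adjusted p 0.0253 to 0.120 over the 6). The knockdown mean call ended with probe sets averaged per gene (1.02, adjusted p = 0.0692) and with no intensity trend (0.122).

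Both genes had larger values in the knockdown arrays within each replicate number as well. For Vim, sh3 minus shNT was 0.57 in replicate 1 and 1.08 in replicate 2, and sh4 minus shNT was 1.02 and 1.54. For Nes the same differences were 1.15 and 1.56 in sh3, and 1.42 and 1.36 in sh4. With the replicate number as a block in the model, both genes passed against shNT in sh3 (limma adjusted p = 0.00355 for Vim and 0.00158 for Nes), the calls missed without it. The number of all genes passing also grew with the block, to 5.6% in the knockdown mean, 3.43% in sh3 and 4.9% in sh4.

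The hairpins were also compared with each other. Vim was higher in sh4 than in sh3 by 0.45 (SE 0.20, 95% interval 0.01 to 0.90, limma adjusted p = 0.815), and Nes by 0.04 (SE 0.22, 95% interval -0.47 to 0.54, limma adjusted p = 0.989). No member passed in this comparison (0 of 8 by limma, 1 with an unadjusted p under 0.05), and 0% of all genes did (774 of 12684 with an unadjusted p under 0.05). With the block 0 of 8 members passed, beside 0.418% of all genes. An unadjusted p under 0.05 was then found for 4 of 8, beside 1636 of 12684 genes. For the probe sets used, the test left room for a Vim difference between hairpins of up to 0.90 and for a Nes difference of about 0.5 either way. Vim probe sets 1450641_at and 1456292_a_at gave larger differences of 0.73 (SE 0.17) and 0.76 (SE 0.19), so 0.90 is no limit for them.

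**Figure D2:**
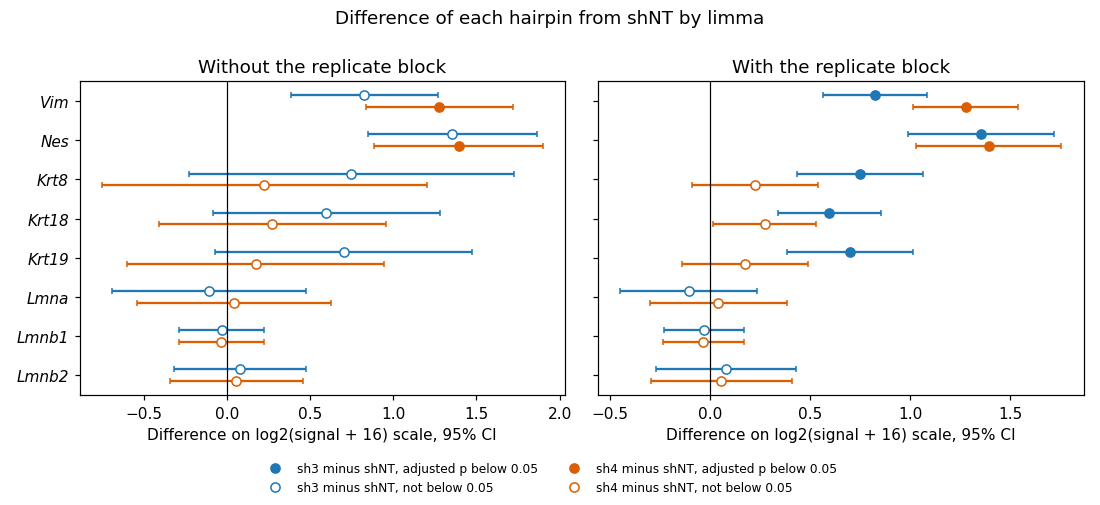
Difference of each hairpin from shNT on the log2(signal + 16) scale with its 95% confidence interval from limma, fitted without (left) and with (right) the replicate number as a block; filled points have an adjusted p under 0.05. Vim and Nes lie to the right of 0 for both hairpins in both fits, the keratins are filled for sh3 in the right panel, and the lamins are open in both.

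The 3 Vim probe sets gave knockdown mean differences of 1.05 (1438118_x_at), 0.99 (1450641_at) and 1.02 (1456292_a_at). In sh4 minus sh3 they gave 0.45, 0.73 and 0.76, so the probe set used for the gene has the smallest separation between the hairpins. Signal of 1450641_at was 2929 and 2021 in shNT, 3520 and 3986 in sh3, and 5966 and 6532 in sh4, with no overlap between any pair of groups. The Nes probe sets gave 1.37 (1449022_at), 0.58 (1418289_at) and 1.09 (1453997_a_at), and all 3 were higher on every knockdown array than on both controls. The last lay below the filter on dim signal, at 7.30 and 3.16 in shNT and 24.9 to 35.0 on the knockdown arrays. The size of the Nes difference thus depended on the probe set by more than 1.5 times. Separation of all knockdown arrays from both controls was found for 20.7% of genes tested, in either direction, and was not counted over all probe sets. When all 45037 probe sets were tested without a filter, 0 of 20 member probe sets passed in the knockdown mean (limma), beside 0.0422% of all probe sets. An unadjusted p under 0.05 was found for 6 of 20, the 3 of Vim and the 3 of Nes, beside 3899 of all 45037. With the replicate block 4 of 20 passed, the 3 of Vim and 1449022_at of Nes, beside 1.03% of all.

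**Figure D3:**
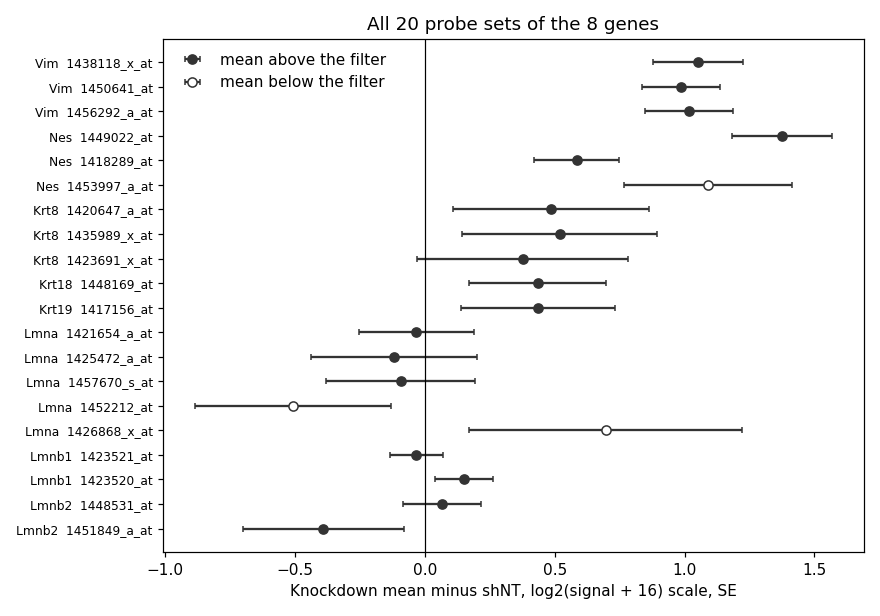
Knockdown mean minus shNT (log2(signal + 16) scale, bars are the limma SE) for all 20 probe sets of the 8 genes, with open points where the mean signal lay below the filter. All 3 Vim, 3 Nes and 3 Krt8 probe sets lie to the right of 0, from 0.38 to 1.37, and the 9 lamin probe sets lie on both sides of it.

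Markers of other cell types were read beside Vim and Nes. The summed signal of 12 fibroblast markers on the array was 825 and 881 in shNT, 1274 and 1333 in sh3, and 1537 and 1576 in sh4, and 10 of the 12 had a higher mean in the knockdown arrays. Their defining collagen Col1a1 read 5.88 and 73.2 in shNT and 53.1 to 86.7 on the knockdown arrays, so its control arrays lay on both sides of the filter signal of 40.1. Lum lay below the filter on all 6 arrays. Of 7 tested, 1 passed, or 2 with the block, beside 0.725% and 5.6% of all genes tested. The 1 was Col3a1, with both controls below the filter signal. It passed the filter only through the knockdown arrays, so its call is not read as a result. The summed signal of 12 primitive and parietal endoderm markers was 4332 and 4320 in shNT, 6234 and 7090 in sh3, and 8424 and 7431 in sh4. Of these, 11 of 12 had a higher knockdown mean. In that comparison 2 of 10 tested rose, Col4a1 and Sparc, which encode a basement membrane collagen and a matrix protein. With the block 3 rose. The shares of all genes tested were 0.725% without the block and 5.6% with it. The median difference of the 10 was 0.23 in sh3 (7 positive, 0 passing, beside 0.071% of all genes). In sh4 it was 1.08 (9 positive, 1 passing, beside 0.363%). In sh4 minus sh3 it was 0.97 (8 positive), where 0 passed, or 3 with the block beside 0.418% of all genes. Of the defining endoderm factors, Gata4 read 34.8 to 83.1 over all arrays. Sox17 read 59.2 and 45.9 in shNT, 65.6 and 62.0 in sh3, and 261 and 160 in sh4. Gata6 and Sox7, which also head that list, are not given here.

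Nestin is a standard marker of neural progenitors. The 8 summed markers of these cells read 2631 and 1441 in shNT and 1753 to 2595 on the knockdown arrays, which overlap. Of the 8, 6 had a higher mean in the knockdown arrays. Sox1, an early neural factor, read 117 and 129 in shNT and 25.7 to 248 on the knockdown arrays, and Pou3f2 lay below the filter on all arrays. In the knockdown mean 0 of 7 tested passed by limma, or 1 with the block, beside 0.725% and 5.6% of all genes. An unadjusted p under 0.05 was found for 2 of 7, beside 1559 of 12684 genes. Not all of the first 4 markers of each list are named here, and those beyond the first 4 were picked after their values were seen. The part of any of these cell types in the Vim and Nes differences was not tested.

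Genes whose profile over the 6 arrays lay closest to that of Vim were sought by the root mean square difference of centred log2 values. They were Taf9b at 0.083, Ptpn13 at 0.107 and Armcx3 at 0.120, which encode a TFIID-type factor, a protein tyrosine phosphatase and an armadillo-repeat protein. Ptpn13 signal, for example, was 617 and 427 in shNT, 1000 and 934 in sh3, and 1148 and 1173 in sh4. Nes lay at 0.262 from Vim by the same measure, closer than any other member, the next being Lmnb2 at 0.583. These are descriptions over 6 arrays that share their scaling and their controls, and 0 of these 3 genes remained among the nearest 3 without shNT replicate 2.

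Among the keratins, Krt8, the type II chain, read 1559 and 3553 in shNT, 2615 and 6019 in sh3, and 2272 and 3337 in sh4 (replicates 1 and 2). In each group replicate 2 was higher than replicate 1, and the spread within the control covered both sh4 arrays. Group means were 2556 ± 1409, 4317 ± 2407 and 2804 ± 753 (SD, n = 2). Its type I partner Krt18 read 1861 and 3211 in shNT, 2784 and 4932 in sh3, and 2593 and 3370 in sh4. Krt19, the other simple-epithelial type I chain, read 454 and 731, 674 and 1331, and 528 and 805 in the same order. For all 3 keratins the highest array of the 6 was sh3 replicate 2 and the lowest was shNT replicate 1.

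Without the block no keratin passed in any comparison. Krt8 differed in the knockdown mean by 0.49 (SE 0.37, 95% interval -0.36 to 1.33, limma adjusted p = 0.670), Krt18 by 0.43 (SE 0.26, interval -0.16 to 1.03, limma adjusted p = 0.562) and Krt19 by 0.44 (SE 0.30, interval -0.23 to 1.11, limma adjusted p = 0.620). In sh3 the differences were 0.75, 0.60 and 0.70, and in sh4 0.22, 0.27 and 0.17, for Krt8, Krt18 and Krt19. With 1 array left out the sh3 difference ranged from 0.15 (without sh3 replicate 2) to 1.35 (without sh3 replicate 1) for Krt8, from 0.19 to 1.01 for Krt18 and from 0.22 to 1.18 for Krt19. Leaving out shNT replicate 1 or 2 gave 0.16 or 1.34 for Krt8. The sh4 difference of Krt8 ranged from -0.37 to 0.81, at the extremes without shNT replicate 1 and 2, and no keratin passed in any of these fits. Within replicate 1, sh3 minus shNT was 0.74 for Krt8, 0.58 for Krt18 and 0.55 for Krt19. Within replicate 2 it was 0.76, 0.62 and 0.85, positive in both replicates for all 3 genes. In sh4 the difference was 0.54 in replicate 1 and -0.09 in replicate 2 for Krt8, 0.47 and 0.07 for Krt18, and 0.21 and 0.14 for Krt19. Only Krt8 changed sign between the replicates of sh4.

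With the replicate number as a block, all 3 keratins rose in sh3, with limma adjusted p-values of 0.0179 for Krt8, 0.0205 for Krt18 and 0.0242 for Krt19. None of the 3 passed in sh4 (limma adjusted p from 0.224 to 0.565). In the knockdown mean Krt8 (adjusted p = 0.0438) and Krt18 (0.0311) passed with the block and Krt19 (0.0676) did not. The difference between hairpins was itself tested: sh4 minus sh3 was -0.52 for Krt8 (block 95% interval -0.84 to -0.21), -0.32 for Krt18 (-0.58 to -0.07) and -0.53 for Krt19 (-0.84 to -0.21). Its limma adjusted p with the block was 0.148, 0.278 and 0.148, so the keratin increase was not shown to be larger in sh3 than in sh4. In all, 4 of 8 members passed in the knockdown mean, 5 in sh3 and 2 in sh4 with the block. The shares of all genes tested were 5.6%, 3.43% and 4.9% in the same order. These calls rest on the numbers pairing the cultures, which was inferred from the same arrays.

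Estimated differences between replicate numbers were larger for the 3 keratins than for the other 5 members. Replicate 2 exceeded replicate 1 by 0.98 for Krt8 (SE 0.12, limma adjusted p = 0.00192), 0.66 for Krt18 (SE 0.10, limma adjusted p = 0.00415) and 0.74 for Krt19 (SE 0.12, limma adjusted p = 0.00630). This test was added after the data were seen, and 4.71% of all genes passed it, as did 3 of 8 members. Split by group, the Krt8 difference was 1.18 between the control arrays, 1.20 between the sh3 arrays and 0.55 between the sh4 arrays. Lmna, the A-type lamin, was also higher in replicate 2 of each group, by 0.47 (limma adjusted p = 0.0573). Vim and Nes ran the other way, at -0.33 (limma adjusted p = 0.0796) and -0.32 (limma adjusted p = 0.200). Lmnb1 (0.05) and Lmnb2 (0.04) differed little between the numbers.

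**Figure D4:**
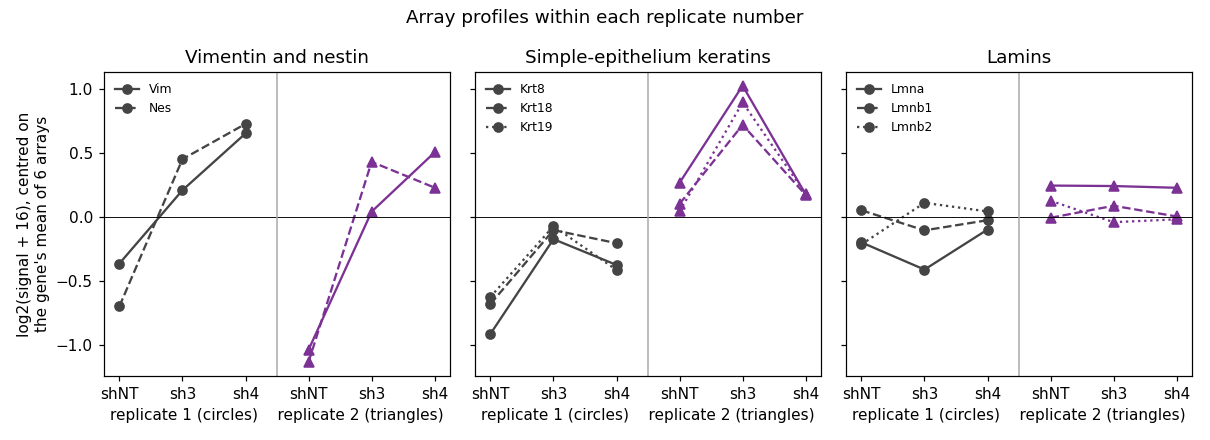
Log2(signal + 16) of each gene minus its mean over 6 arrays, with the groups shNT, sh3 and sh4 laid out within replicate 1 (circles) and replicate 2 (triangles); the lines only join values of 1 gene. Vim and Nes step up from shNT in both replicates, the 3 keratins lie below 0 in replicate 1 and above it in replicate 2 with a peak at sh3, and the lamins stay within 0.5 log2 units of 0.

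The 3 keratins had closely like profiles. The root mean square difference was 0.117 between Krt18 and Krt19, 0.165 between Krt8 and Krt19 and 0.187 between Krt8 and Krt18, against 0.844 between Vim and Krt8. The 3 Krt8 probe sets gave knockdown mean differences of 0.49, 0.52 and 0.38. Krt8 and Krt18 lie beside each other on chromosome 15, on opposite strands, with 2 non-coding RNA genes (Gm36026 and Gm41404) between them in the RefSeq gene table.

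Outside the members, Ahnak, which encodes a giant membrane-associated scaffold protein, lay closest to Krt8, at 0.103. Phldb2 followed at 0.149 and Synpo2l at 0.203. Ahnak read 954 and 1969 in shNT, 1526 and 2984 in sh3, and 1181 and 1765 in sh4, higher in replicate 2 of every group. Closest to Krt18 were AF067061 at 0.083, S100a6, a calcium-binding protein, at 0.111 and Slco2a1, a prostaglandin transporter, at 0.133. Closest to Krt19 were AF067061 at 0.103, Ahnak at 0.114 and S100a6 at 0.140. S100a6 read 1475 and 2638 in shNT, 2031 and 3512 in sh3, and 1724 and 2744 in sh4. Without sh3 replicate 2, the array with the highest keratin signal, 1 of 3 genes remained among the nearest to Krt8 and 0 of 3 to Krt18 or Krt19.

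Keratins 8 and 18 also mark trophectoderm, and those markers were read beside them. The 10 summed trophectoderm markers were 3573 and 4096 in shNT, 3446 and 4016 in sh3, and 2658 and 3656 in sh4. Replicate 2 was above replicate 1 in each group. Of the 10 markers, 8 had a higher mean in the knockdown arrays, unlike the sums. With the block 2 of 8 tested rose and 1 fell in the knockdown mean, beside 5.6% of all genes tested. The master factor Cdx2 read 18.8 and 2.43 in shNT, 90.6 and 209 in sh3, and 104 and 120 in sh4. Both its control readings lay below the filter signal of 40.1, so it passed the filter only through the knockdown arrays. It was the 1 of 8 tested that passed without the block, which is not read as a result, and no size of change is given. Elf5 read at most 44.5 and Gata3 at most 73.3 on any array, and Krt7, the partner of type I keratins in glandular and trophoblast cells, read 128 and 200 in shNT, 163 and 261 in sh3, and 118 and 163 in sh4. For definitive endoderm and mesoderm, 7 summed markers read 374 to 470 over all arrays, 3 of 7 with a higher knockdown mean, and Gsc and Cer1 lay below the filter on all arrays. The part of these cells in the keratin values was not tested.

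The lamins gave no call in any comparison, with or without the block. Lmnb1, a B-type lamin, read 5111 and 4908 in shNT, 4584 and 5238 in sh3, and 4843 and 4942 in sh4. The control values lay inside the range of the knockdown arrays, and the knockdown mean differed by -0.03 (SE 0.10, 95% interval -0.25 to 0.19, limma adjusted p = 0.933). Its second probe set, 1423520_at, was higher on all 4 knockdown arrays (1402 to 1610) than in shNT (1379 and 1307), by 0.15 (SE 0.11, limma adjusted p = 0.771 over all probe sets). Lmnb2, the other B-type lamin, read 487 and 621 in shNT and 551 to 614 on the knockdown arrays, a difference of 0.07 (SE 0.15, 95% interval -0.28 to 0.41, limma adjusted p = 0.908). Its dimmer probe set 1451849_a_at gave -0.39 (SE 0.31).

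Lmna read 416 and 571 in shNT, 357 and 570 in sh3, and 447 and 564 in sh4. The replicate 2 arrays of the 3 groups lay within a few units of each other, and the groups overlapped throughout. The knockdown mean differed by -0.03 (SE 0.22, 95% interval -0.54 to 0.47, limma adjusted p = 0.971). Its other 4 probe sets ran from -0.51 to 0.70, and those at the 2 ends, 1452212_at and 1426868_x_at, lay below the filter on dim signal. For Lmnb1 the knockdown mean interval left out a change of the size seen for Vim in that comparison (1.05). Its sh3 interval, -0.29 to 0.22, left out changes of the size seen for the keratins in sh3 (0.60 to 0.75). For Lmna the knockdown mean interval was wide enough to hold a difference of -0.54.

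Members were also read against all genes by a rule without a test. All 4 knockdown arrays lay on 1 side of both control arrays for 2 of 8 members, Vim and Nes, and for 20.7% of all genes tested. The median knockdown mean difference was 0.44 over the 8 members, 6 of them positive, against 0.01 over all genes tested. In sh3 it was 0.65 and in sh4 0.20, with 6 and 7 of 8 positive.

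Related genes of the same pathway were taken from 4 lists. Of 34 other intermediate filament genes, 18 passed the filter, and 0 of 18 passed the test in the knockdown mean (limma, 2 with an unadjusted p under 0.05), with 13 positive and a median of 0.08. Beside this list and those below, 0.725% of all 12684 genes passed in the knockdown mean and 1559 had an unadjusted p under 0.05. Nefm, the medium neurofilament chain, read 106 and 132 in shNT, 321 and 242 in sh3, and 220 and 115 in sh4, a knockdown mean difference of 0.76 (SE 0.28, limma adjusted p = 0.307). In sh3 alone it was higher by 1.13, which passed with the block (limma adjusted p = 0.0471). Desmin, the muscle filament protein, read 106 and 176 in shNT and 199 to 248 on the knockdown arrays, all above both controls, a difference of 0.59 (limma adjusted p = 0.358). Krt42, which is also on the trophectoderm list, gave -0.42 (limma adjusted p = 0.469).

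Filament linkers and plakins tie filaments to desmosomes and other structures. Of 16, 15 were tested and 0 passed in the knockdown mean (limma, 0 with an unadjusted p under 0.05), with 11 positive and a median of 0.16. Desmoplakin (Dsp), which anchors keratin filaments at desmosomes, read 1741 and 1605 in shNT, 2240 and 2459 in sh3, and 1618 and 1477 in sh4. Only its sh3 arrays stood above the controls, by 0.49, which passed with the block (limma adjusted p = 0.0392), and its knockdown mean difference was 0.19 (limma adjusted p = 0.547). Fbf1, a keratin-binding protein, gave 0.36 (limma adjusted p = 0.474) and Pof1b, an actin-binding protein of epithelial junctions, -0.48 (limma adjusted p = 0.554).

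Of 25 lamina and nuclear envelope partners, 24 had a probe set of their own, 23 were tested and 0 passed in the knockdown mean (limma, 2 with an unadjusted p under 0.05), with 11 positive and a median of -0.003. Ankle2, a LEM-domain protein of nuclear envelope reassembly, read 1797 and 1923 in shNT, 1288 and 1395 in sh3, and 1461 and 1432 in sh4. All its knockdown arrays lay below both controls, by -0.41 in the mean (limma adjusted p = 0.162, and 0.0290 with the block). Sun1, which spans the inner nuclear membrane and links lamins to the cytoskeleton, read 2756 and 2822 in shNT and 1998 to 2399 on the knockdown arrays (-0.33, limma adjusted p = 0.261). Syne1, a nesprin that binds SUN proteins, was dim, at 40.9 and 35.3 in shNT and 55.5 to 71.5 on the knockdown arrays (0.56, limma adjusted p = 0.470). All 6 lamin processing enzymes were tested and 0 passed (limma, 0 with an unadjusted p under 0.05), with 1 positive and a median of -0.10. The farnesyltransferase subunits gave -0.28 (Fntb, limma adjusted p = 0.551) and -0.15 (Fnta, limma adjusted p = 0.611), and Pggt1b, a subunit of a related prenyl transferase, 0.18 (limma adjusted p = 0.670).

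With the block, the lists gave few calls beside those named. Between replicate numbers, Krt12 (-1.05, limma adjusted p = 0.0383) of the other filament genes and Narf (-0.61, limma adjusted p = 0.0357), a prelamin A binding protein, passed, and both were lower in replicate 2, the reverse of Krt8, Krt18 and Krt19. These 2 were named after their values were seen.

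**Figure D5:**
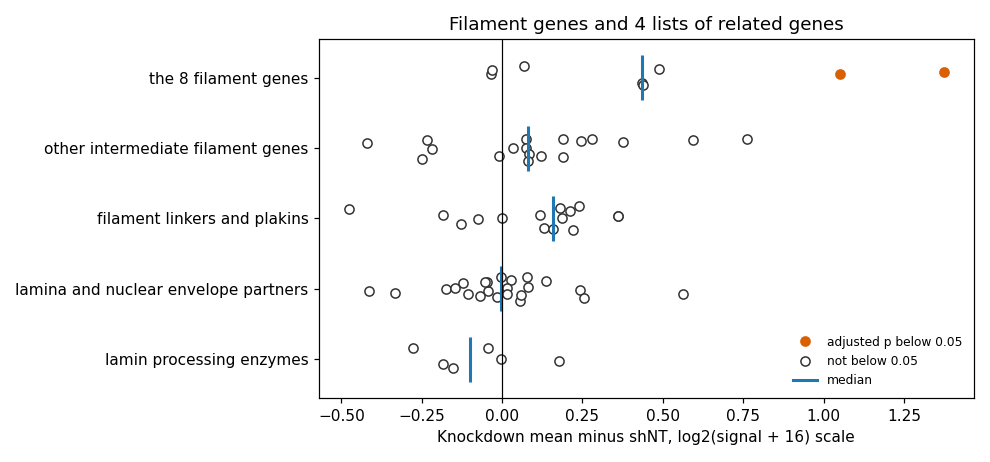
Knockdown mean minus shNT (log2(signal + 16) scale) of every tested gene among the 8 filament genes and the 4 lists of related genes; filled points have an adjusted p under 0.05 without the replicate block and the bar is the median of the list. Vim and Nes are the 2 filled points, at 1.05 and 1.37, and the medians of the 4 related lists lie between -0.10 and 0.16.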

How the data were processed

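The deposited table has 1 column of linear signal intensity for each of 6 arrays. The submitters' processing notes name MAS5, with no version. The trimmed mean was 496 to 497 on every array, so the deposited signal was used as scaled. Probe sets were named by the platform annotation (34945 with 1 symbol, 932 with several, 9160 with none, 64 controls left out).

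Values were taken as log2(signal + 16), which understates the change of dim genes. The brightest probe set of each of 18193 genes was kept, and 12684 genes at or above the 40th percentile (a signal of 40.1) were tested. A model of 3 group means was fitted to 6 arrays with limma 3.58.1 (R 4.3.3), with residual df 3, prior df 5.96, an intensity trend and 2-sided tests, adjusted by Benjamini-Hochberg with a threshold of 0.05. The number of arrays limits the precision. The labels call the replicates biological but name no separate passages or days, so p-values measure the spread between these samples.

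Arrays that share a number deviated from their group means together, with correlations over genes of 0.223 to 0.302. For this reason the numbers were read as pairing the cultures, an inference from these data, and fits with that block (residual df 2, prior df 9.34) are given where they change a call or a count. The test of replicate number was added after the data were seen.

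The members, lists and alternatives were chosen with earlier results of these data known. All members are named. Of each related list the named genes are those past the threshold in a comparison or otherwise the 3 with the smallest p. Of a cell type list they are some of the first 4 markers and a few later ones picked after their values were seen. Also named are the 3 genes nearest in profile to Vim, Krt8, Krt18 and Krt19 (members, RIKEN and Gm symbols passed over). Promoter windows came from RefSeq (GRCm38.p6), matched by symbol for 4 members shown. The fit was tested on simulated data. Alternatives were another pseudocount, filter, scaling, probe set rule, no intensity trend, the block and each array left out.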

Additional observations from a re-analysis of the deposited data

How the results depend on the processing

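Alternatives were run for the 8 members and 12 named genes of the related lists, not for cell type markers, Krt12, Narf or the levels of genes nearest in profile. No called difference among them changed direction: of 1292 alternative values, 1252 kept their side of the threshold, 29 lost a call, 11 gained one and 0 reversed, and 57 differences that were not called changed sign. In the knockdown mean, 2 members passed (Vim and Nes). With no filter on dim genes 1 passed (Nes), with probe sets averaged per gene 1 (Vim), with no intensity trend 0, and with the replicate block 4. Leaving out each array in turn gave 0 to 2: 0 without shNT replicate 2, either sh3 array or sh4 replicate 1, 1 without sh4 replicate 2, and 2 without shNT replicate 1. Krt8 was -0.10 without shNT replicate 1 and 1.08 without shNT replicate 2, and was called in neither. Over all genes, 92 passed, against 36 with no filter, 34 with the mean of probe sets, 59 without probe sets that may cross-hybridise, 0 with no trend (1499 with an unadjusted p under 0.05), 710 with the block and 4 to 43 without 1 array. In sh3, 0 members passed and 5 with the block; over all genes 9 passed, 0 with a pseudocount of 1, no filter, a filter at the 60th percentile, the mean of probe sets or no trend, 435 with the block and 0 to 1 without 1 array. In sh4, 2 members passed, 1 (Vim) with a pseudocount of 1, the 60th percentile or the mean of probe sets, 0 with no filter or no trend, and 0 to 2 without 1 array. Over all genes 46 passed in sh4, 21 with no filter, 27 with the mean of probe sets, 6 with no trend, 622 with the block and 3 to 39 without 1 array. In sh4 minus sh3, 0 genes passed and 53 with the block. The block changed no other member's call. Fits that leave out 1 array assume that the lone array of its group varies like the others. The cause of these changes was not tested. With 2 arrays a group and signals near background for some probe sets, small differences could not be detected.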
